A study of Mus musculus with 7 samples.

Results

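The unfolded protein and endoplasmic reticulum (ER) stress response was examined in mouse ovary through 38 member genes, drawn from 55487 gene identifiers in the count tables. The members were chosen by name. They comprised 5 sensors and signalling components, 3 transcription factors, 11 chaperones and folding factors, 5 genes of disulfide bond formation, 8 genes of ER-associated degradation (ERAD) and 6 genes of the ATF4 branch. RNA-seq had been performed on ovaries of C57BL/6J females at diestrus on postnatal day 60. The CNTR group held 3 libraries, from offspring of dams injected with PBS, and the PAMH F3 group held 4. PAMH F3 mice were third-generation descendants of pregnant F0 dams that had been given human recombinant anti-Müllerian hormone (AMH) at 0.12 mg/kg/day between days E16.5 and E18.5 of gestation, and the later generations received no AMH. Since CNTR animals belonged to generation 1 and PAMH F3 animals to generation 3, group and generation cannot be told apart. The comparison asks whether expression of the response differed in ovaries of the PAMH F3 lineage, a mouse model of polycystic ovary syndrome.

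The ER folds and glycosylates secreted and membrane proteins. When unfolded proteins accumulate there, the sensors IRE1α (encoded by Ern1), PERK (Eif2ak3) and ATF6 are released from the chaperone BiP (Hspa5) and switch on separate branches. IRE1α splices Xbp1 mRNA into the form that encodes an active transcription factor, cleaved ATF6 travels to the nucleus, and PERK phosphorylates eIF2α, which slows translation in general while favouring that of Atf4. In the ovary, growing follicles secrete hormones and the zona pellucida, and luteal cells are rich in smooth ER. Gene-level counts do not measure Xbp1 splicing, ATF6 cleavage, eIF2α phosphorylation or any protein. In bulk tissue, fewer cells of a type and less RNA per cell cannot be told apart.

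Each library held between 32158174 and 35485021 counts assigned to genes, of which the 38 members took between 1.15% and 1.36%. Levels are given as CPM (counts scaled to a common library total) after TMM scaling, which also adjusts for library composition. All 38 members passed the filter on low counts, as did 18779 genes in all, and the lowest count of any member in any library was 27, for Chac1. The summed CPM of 6 granulosa markers lay between 2146 and 3244 and that of 6 oocyte markers between 221 and 357, and the groups overlapped in both. The sum of 6 luteal markers was 6365, 6850 and 8512 CPM in CNTR and 7451, 4659, 4967 and 6240 CPM in PAMH F3. Here all PAMH F3 libraries except PAMH F3 1 lay below every CNTR library. Of this sum, Cyp11a1 alone gave between 2939 and 4899 CPM, and the groups overlapped in each of the 6 markers. The mean of Star was higher in PAMH F3 (483.5 CPM) than in CNTR (452.5 CPM), and those of the other luteal markers were lower. The sum of 6 theca and stroma markers was between 1342 and 1654 CPM in CNTR and between 1041 and 1357 CPM in PAMH F3. Again only PAMH F3 1 reached the CNTR range. Insl3, a theca cell marker, lay between 0 and 0.15 CPM, whereas Cyp17a1, another theca marker, reached between 141 and 428 CPM. The summed level of 4 oviduct markers was between 3042 and 5397 CPM in CNTR and between 2697 and 6449 CPM in PAMH F3, of which Ovgp1 alone gave between 2394 and 6172 CPM. Any part of oviduct tissue or of luteal, theca or stroma content in the member levels was not tested.

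The promoters of many ER chaperone genes carry the ER stress response element (ERSE), a CCAAT box and a CCACG box separated by 9 bases, through which ATF6 is known to act together with NF-Y. Among 33 members matched to a RefSeq gene start (GRCm38.p6), the spaced element was found on either strand, within the 250 bases before the start, in 9, that is in 27.3% of them. The same letters occurred in 37 of 32851 RefSeq windows of equal length, or 0.113%. Thus 9 of those 37 windows belonged to members of the response. Of the 9 genes, 6 were chaperones and folding factors, 2 belonged to ERAD and 1 to disulfide bond formation. The other 24 matched members lacked it. Members were chosen as known genes of the response and the windows were not matched for GC content, so these shares are a description without a test. The matched stretches are shown with 10 bases on either side, or 5 for Hspa5, since they hold the element. Capitals mark the boxes, and a match on the opposite strand reads CGTGG and ATTGG.
Hspa5 (chr2:34772020-34772048, + strand): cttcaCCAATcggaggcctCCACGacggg
Hsp90b1 (chr10:86705523-86705666, - strand): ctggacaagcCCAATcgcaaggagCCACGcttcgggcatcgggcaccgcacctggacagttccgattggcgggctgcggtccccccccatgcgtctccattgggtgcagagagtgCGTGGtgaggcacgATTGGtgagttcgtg
Calr (chr8:84847065-84847103, - strand): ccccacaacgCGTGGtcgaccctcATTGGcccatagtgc
Canx (chr11:50325790-50325828, - strand): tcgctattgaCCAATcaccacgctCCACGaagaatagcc
Dnajc3 (chr14:118937817-118937855, + strand): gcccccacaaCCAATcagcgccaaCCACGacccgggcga
Creld2 (chr15:88819510-88819548, + strand): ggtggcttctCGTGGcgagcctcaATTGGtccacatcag
Pdia6 (chr12:17266481-17266519, + strand): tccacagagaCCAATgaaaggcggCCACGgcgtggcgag
Syvn1 (chr19:6046522-6046560, + strand): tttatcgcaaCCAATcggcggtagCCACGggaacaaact
Derl3 (chr10:75893232-75893270, + strand): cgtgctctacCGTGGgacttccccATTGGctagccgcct

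These stretches lie upstream of the RefSeq start, and that of Hspa5 lies inside the gene as GENCODE M21 draws it. The Hsp90b1 stretch holds 2 matches, on opposite strands. The related ERSE-II, ATTGG and CCACG separated by 1 base, occurred in 1 of the 33 members, Herpud1, against 10 of 32851 windows (0.0304%). The C/EBP-ATF response element (CARE, letters TGATGNAA), to which ATF4 binds, occurred in 3 of 33 members (9.09%), Herpud1, Asns and Chac1, against 3.45% of windows. The Herpud1 stretch is given for its ERSE-II, and those of Asns and Chac1 for their CARE, which for Chac1 is on the opposite strand. The Asns stretch also lies inside the GENCODE M21 gene.
Herpud1 (chr8:94386367-94386397, + strand): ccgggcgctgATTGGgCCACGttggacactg
Asns (chr6:7693215-7693242, - strand): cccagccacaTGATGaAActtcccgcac
Chac1 (chr2:119351039-119351066, + strand): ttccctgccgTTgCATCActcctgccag

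The core of the unfolded protein response element, TGACGTGG, was in none of the 33 windows and in 0.563% of all windows. The single boxes are part of the spaced elements and were common in general. CCAAT was found in 72.7% of the matched members against 33.8% of all windows, and CCACG in 63.6% against 28.3%. No RefSeq window was matched for Atf6, Hyou1, Manf, Derl1 and Ppp1r15b. A match of letters is a description of the promoter and does not show binding in these ovaries.

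The members spanned a wide range of levels (plot of levels per kb). Per kb of merged exon length, the highest CNTR mean was that of Hsp90b1 (GRP94, the ER paralog of HSP90) at 468 ± 80.1 CPM per kb (SD, n = 3). Hspa5 followed at 457 ± 46.7, then the lectin-associated disulfide isomerase Pdia3 at 396 ± 40.3 and the calcium-binding chaperone Calr at 385 ± 7.18. Hsp90b1 and Hspa5 differed by less than their SD, and so did Pdia3 and Calr by less than the SD of Pdia3. P4hb, the founding disulfide isomerase, stood at 353 ± 16.3 CPM per kb, Pdia4 at 279 ± 10.8, the membrane lectin chaperone Canx at 194 ± 20.2 and Pdia6 at 174 ± 6.99. These 8 genes were followed, after a gap, by Xbp1 at 87.9 ± 1.90 CPM per kb and Atf4 at 75.5 ± 9.42. Among the sensors, Atf6b reached 24.7 ± 6.48 CPM per kb, Ern1 17.97 ± 0.904, Atf6 11.3 ± 0.910 and Eif2ak3 9.01 ± 0.678. Ddit3, which encodes CHOP, a factor linked to cell death under prolonged stress, reached 21.5 ± 1.24 CPM per kb. The lowest members were the ATF4 and CHOP targets Chac1, at 1.76 ± 0.299, and Trib3, at 1.19 ± 0.199 CPM per kb. The order in PAMH F3 was close to that in CNTR, with 28 of 38 genes at the same rank and no gene moving by more than 4 ranks. The gap and parts of the order depended on the length used. Per kb of median transcript length, Hspa5 (2984) stood above Hsp90b1 (1685) in CNTR. By that length Manf (398) and Xbp1 (274) followed Pdia4 (487) without such a gap, and Atf4 had rank 17.

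**Figure D1:**
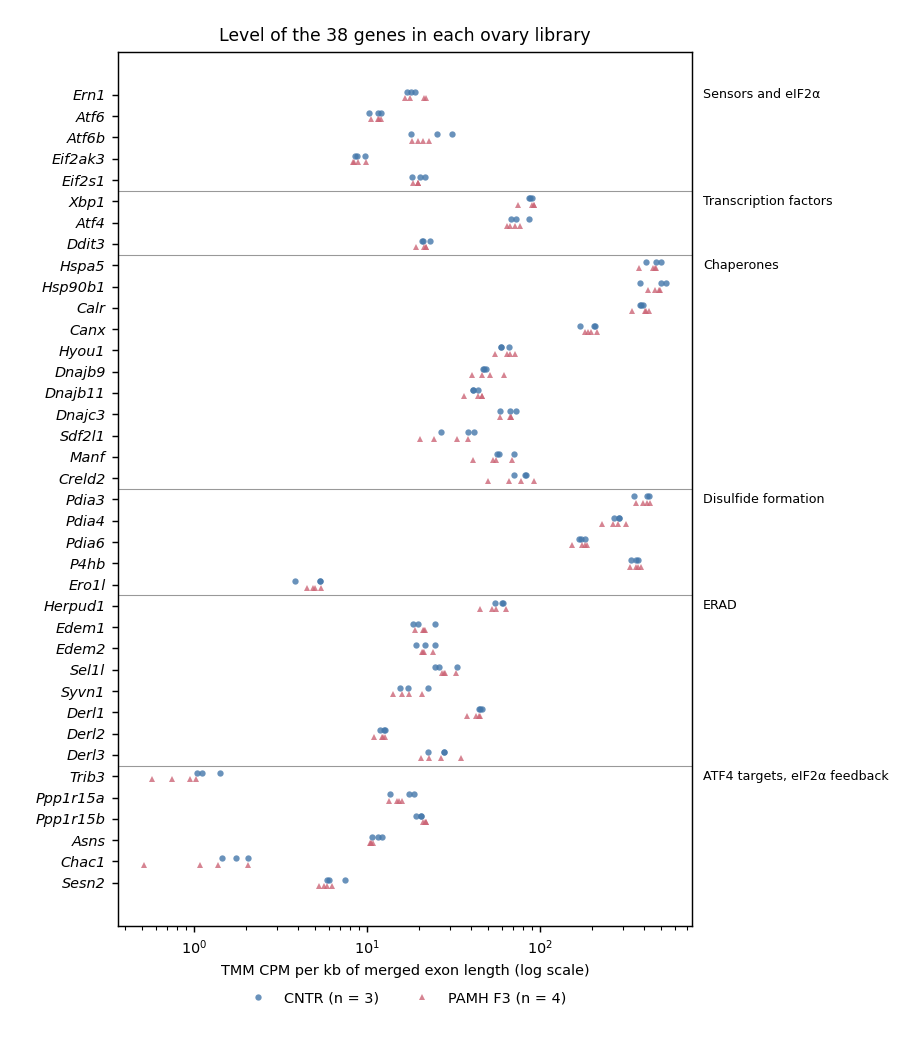
Level of each of the 38 genes in each library, as TMM CPM per kb of merged exon length on a log scale, with CNTR as blue circles and PAMH F3 as red triangles, grouped by role. The points of both groups lie together for nearly every gene, with Hsp90b1 and Hspa5 at the high end and Chac1 and Trib3 at the low end.

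The ratio of the highest to the lowest of the 7 libraries ranged from 1.14 for Ppp1r15b to 3.97 for Chac1, with a median of 1.33, against a median of 1.5 over all genes tested and 1.38 over genes at or above the mean CPM of the lowest member. The median coefficient of variation was 9.54% for the members and 14.4% for all genes, without matching for level. The members with the widest spread were Chac1, Trib3, Sdf2l1, Creld2, Atf6b and Manf.

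In PAMH F3 against CNTR, no member passed the threshold. With edgeR's quasi-likelihood test, 2 surrogate variables and Benjamini-Hochberg adjustment over all genes tested, 0 of 38 members reached an adjusted p of 0.05, and the share over all genes was 0%. The smallest adjusted p among the members was 0.707 by this edgeR test. With these surrogate variables in DESeq2's Wald test, 102 genes passed and 0 of them were members. At an unadjusted p under 0.05, edgeR called 0 of 38 members, against 7.63% of all genes, and 0 of 38 without surrogate variables, against 3.89% of all genes. The member with the smallest unadjusted edgeR p was Asns, at 0.0862.

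The estimated differences were small and their intervals narrow (plot of fold changes). Log2 fold changes were above 0 for 16 members and below 0 for 22, with a median of -0.019 against 0.0067 over all genes, and without surrogate variables the split was 15 and 23. In size, the log2 fold changes had a median of 0.063 for the members and 0.097 for all genes. The 95% interval lay within 1.5-fold either way for 36 of 38 members, and for 34 when surrogate variables were left out. The exceptions with surrogate variables were Trib3 and Chac1. The ratio of the PAMH F3 mean to the CNTR mean ranged from 0.694 for Trib3 to 1.08 for Ppp1r15b, and was within 1.1-fold for 30 members. A difference smaller than these intervals was not detectable with 3 and 4 libraries.

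**Figure D2:**
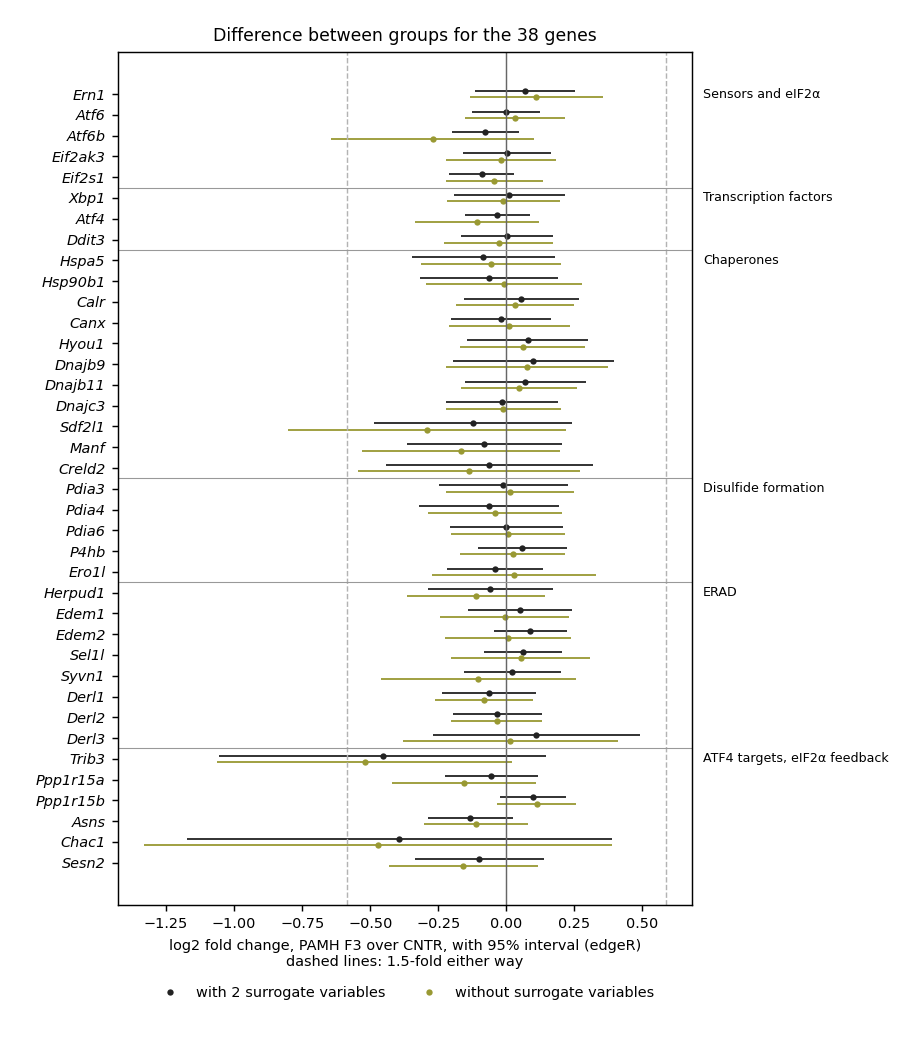
Log2 fold change of PAMH F3 over CNTR for the 38 genes from edgeR, with 95% intervals, with 2 surrogate variables in black and without them in olive. All intervals cover 0, and with surrogate variables only those of Trib3 and Chac1 extend past the dashed lines at 1.5-fold.

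Of the sensors and signalling components, 2 were higher and 3 lower, with log2 fold changes between -0.09 and 0.07, and none passed the test. Ern1, the kinase and endonuclease at the head of the most conserved branch, measured 147, 139 and 154 CPM in CNTR and 174, 145, 135 and 179 CPM in PAMH F3. PAMH F3 1 and PAMH F3 4 lay above the CNTR range, PAMH F3 3 below it and PAMH F3 2 within it, and the log2 fold change was 0.07 (SE 0.08). Atf6, which is cleaved in the Golgi to release its active part, measured 107, 94.6 and 111 CPM in CNTR and 112, 107, 97.7 and 109 CPM in PAMH F3, for a log2 fold change of -0.0019 (SE 0.05). Eif2ak3, the kinase of the translational branch, measured 51.1, 52.9 and 58.9 CPM in CNTR and 50.3, 50.9, 53.4 and 59.6 CPM in PAMH F3, for a log2 fold change of 0.0026 (SE 0.07). For Atf6 and Eif2ak3 the groups overlapped throughout. The 95% interval of Eif2ak3 ran from -0.16 to 0.16 on the log2 scale. Atf6b, the paralog of Atf6, was the most variable of these genes, between 49.5 CPM in CNTR 1 and 85.1 CPM in CNTR 2. Eif2s1, which encodes eIF2α, lay between 90.3 and 107 CPM.

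The 3 transcription factors overlapped between the groups. Xbp1 measured 283, 293 and 281 CPM in CNTR and 241, 293, 301 and 297 CPM in PAMH F3. PAMH F3 1 was the low library, and the other PAMH F3 libraries lay at or above the highest CNTR library. The log2 fold change of Xbp1 was 0.01 (SE 0.09), with a 95% interval from -0.19 to 0.22. Atf4 measured 161, 203 and 170 CPM in CNTR and 152, 169, 180 and 158 CPM in PAMH F3, for a log2 fold change of -0.03 (SE 0.05). CNTR 2 was the highest library for Atf4. Ddit3 measured 35.95, 39.3 and 35.4 CPM in CNTR and 32.7, 37.3, 37.7 and 36.8 CPM in PAMH F3. The fitted log2 fold change was 0.0023 (SE 0.07), and the 95% interval ran from -0.17 to 0.17. A second identifier of the same name, which overlaps 6.13% of the exon length of Ddit3 on the same strand, had 0 counts in every library, and reads in the shared stretch could have been left out as ambiguous.

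The chaperones, which hold nascent chains and are the classical targets of ATF6, were lower for 7 of 11 genes and higher for 4, with none past the threshold. Hspa5, whose promoter element is shown above, measured 2105, 1716 and 1971 CPM in CNTR and 1577, 1978, 1954 and 1905 CPM in PAMH F3. The lowest library of each group, CNTR 2 and PAMH F3 1, stood apart from the rest, which lay between 1905 and 2105 CPM. The mean was 1931 ± 197 CPM in CNTR (SD, n = 3) and 1853 ± 187 CPM in PAMH F3 (SD, n = 4). The log2 fold change of Hspa5 was -0.08 (SE 0.11), with a 95% interval from -0.35 to 0.18. The same 2 libraries were the lowest for Hsp90b1, which measured 2136, 1521 and 2001 CPM in CNTR and 1684, 1974, 1868 and 1959 CPM in PAMH F3, and a log2 fold change of -0.06 (SE 0.11). Calr measured 1089, 1130 and 1106 CPM in CNTR and 976, 1223, 1156 and 1170 CPM in PAMH F3. As for Xbp1, the PAMH F3 libraries other than PAMH F3 1 lay above the CNTR range, and the log2 fold change was 0.05 (SE 0.09). Hyou1, a large HSP70-related chaperone that assists BiP, measured 431, 427 and 480 CPM in CNTR and 395, 481, 464 and 516 CPM in PAMH F3, for a log2 fold change of 0.08 (SE 0.09).

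Of the other chaperones, Canx lay between 799 and 994 CPM and the BiP co-chaperone Dnajc3 between 302.5 and 371 CPM, and both had a log2 fold change of -0.02. Dnajb9, Dnajb11, Sdf2l1, Manf and Creld2 are small or secreted folding factors. Dnajb9 ranged from 102 to 157 CPM and Dnajb11 from 118 to 149 CPM. Sdf2l1 ranged from 22.5 to 46.0 CPM, Manf from 145 to 248 CPM and Creld2 from 68.1 to 126 CPM, and for these 3 genes the lowest library was PAMH F3 1.

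The 5 genes of disulfide bond formation had log2 fold changes from -0.06 to 0.06, 2 higher and 3 lower, and none passed the test. P4hb measured 959, 1050 and 1021 CPM in CNTR and 939, 1091, 1052 and 1017 CPM in PAMH F3, for a log2 fold change of 0.06 (SE 0.07). The ratio of the highest to the lowest library of P4hb was 1.16, among the smallest of the 38. Pdia3 ranged from 1097 to 1355 CPM, Pdia4 from 543 to 747 CPM and Pdia6 from 570 to 702 CPM. Ero1l, the oxidase that recharges the isomerases, ranged from 20.3 to 28.5 CPM.

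In ERAD, which extracts misfolded proteins for the proteasome, 5 of 8 genes were higher and 3 lower, with log2 fold changes from -0.06 to 0.11. Sel1l, the scaffold of the HRD1 ligase complex, measured 224, 212 and 281 CPM in CNTR and 238, 241, 231 and 281 CPM in PAMH F3, for a log2 fold change of 0.06 (SE 0.06). Syvn1, the HRD1 ligase itself, measured 75.7, 109 and 83.7 CPM in CNTR and 68.2, 85.4, 101 and 77.5 CPM in PAMH F3, and its log2 fold change was 0.02 (SE 0.08). Herpud1, a membrane component induced under ER stress, measured 127, 141 and 143 CPM in CNTR and 105, 130, 147 and 124 CPM in PAMH F3, for a log2 fold change of -0.06 (SE 0.10). The groups overlapped in each of these genes. Derl3, a rhomboid pseudoprotease of secretory cells, ranged from 40.9 CPM in PAMH F3 1 to 69.6 CPM in PAMH F3 3, and its log2 fold change of 0.11 (SE 0.16) was the highest of the 38.

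The groups did not overlap for 2 of 38 members, both in the ATF4 branch, against 4.25% of all genes tested, which is close to the share among the members. Trib3, a pseudokinase that restrains ATF4 and CHOP, measured 2.20, 2.37 and 3.00 CPM in CNTR and 1.59, 2.02, 2.18 and 1.22 CPM in PAMH F3. All PAMH F3 libraries were lower than all CNTR libraries, with CNTR 1 at 2.20 CPM next to PAMH F3 3 at 2.18 CPM. The log2 fold change of Trib3 was -0.45 (SE 0.26), with a 95% interval from -1.05 to 0.15, and the two-sided exact permutation p over 35 divisions of the libraries was 0.0571. The log2 fold change was -0.22 without CNTR 3, -0.26 without PAMH F3 4, -0.58 without CNTR 1 and -0.56 without CNTR 2. Its counts lay between 39 and 97 per library. Scaled to plain library totals, 1 member was left whose groups did not overlap, since Trib3 then had 73 of 33088192 counts in CNTR 1 and 78 of 34964968 in PAMH F3 3.

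Ppp1r15b, the constitutive subunit that directs a phosphatase to eIF2α, was the member whose PAMH F3 libraries were all higher. It measured 115, 108 and 114 CPM in CNTR and 122, 118, 123 and 121 CPM in PAMH F3. The means were 112 ± 3.87 CPM in CNTR (SD, n = 3) and 121 ± 1.86 CPM in PAMH F3 (SD, n = 4). The log2 fold change was 0.10 (SE 0.05), and the two-sided exact permutation p of 0.0286 is the smallest that 3 against 4 libraries can give. With edgeR's quasi-likelihood test and Benjamini-Hochberg adjustment, the adjusted p of Ppp1r15b was 0.715. A gene on the opposite strand overlaps 11.4% of its exon length. Ppp1r15a (GADD34), the stress-induced counterpart, ranged from 39.3 to 54.7 CPM, and its groups overlapped.

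Chac1 and Asns were picked for a closer description after their values were seen. Chac1, a glutathione-degrading enzyme downstream of ATF4, measured 2.38, 3.36 and 2.88 CPM in CNTR and 1.79, 2.26, 3.35 and 0.847 CPM in PAMH F3. PAMH F3 3 reached the level of the highest CNTR library and PAMH F3 4 was the lowest, and the log2 fold change was -0.39 (SE 0.33). It was -0.11 without PAMH F3 4, -0.16 without CNTR 3, -0.65 without CNTR 1 and -0.66 without PAMH F3 3. Asns, asparagine synthetase, a textbook ATF4 target whose CARE is shown above, measured 33.3, 31.6 and 29.1 CPM in CNTR and 28.9, 29.6, 28.6 and 28.7 CPM in PAMH F3. CNTR 3 lay within the PAMH F3 range, the log2 fold change was -0.13 (SE 0.07), and -0.064 without CNTR 1. The two-sided exact permutation p was 0.0571. The leucine sensor Sesn2 ranged from 18.3 to 26.0 CPM. In the whole branch, 5 of 6 genes were lower and 1 higher in PAMH F3, the median log2 fold change was -0.12, and none passed the test.

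**Figure D3:**
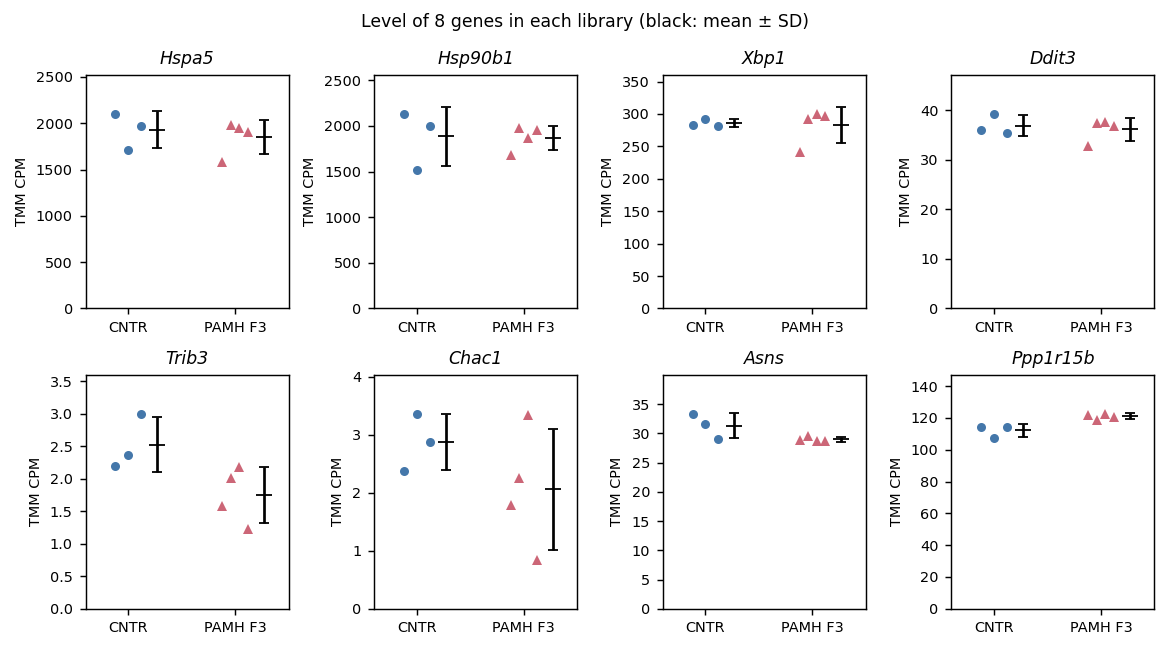
TMM CPM of 8 genes in each library, on linear axes from 0, with CNTR as circles, PAMH F3 as triangles and the mean ± SD of each group in black. The groups overlap in all but Trib3 and Ppp1r15b.

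Leaving out 1 library changed which members were called. Without CNTR 1, edgeR gave an unadjusted p under 0.05 for 6 members (Atf6b, Atf4, Sdf2l1, Trib3, Ppp1r15a and Chac1), all lower in PAMH F3, when 17.1% of all genes tested passed as well. None of the 6 passed after adjustment. Without CNTR 2, this held for Trib3 alone, against 7.70% of all genes. The number of members whose groups did not overlap was between 2 and 5 when any library was left out, against between 6.09% and 15.5% of all genes, and the 5 arose without CNTR 1, at 15.5%. Trib3 and Ppp1r15b did not overlap with every library kept, and leaving out a library cannot make such groups overlap. They were therefore among them each time by construction, and the number could not fall under 2. Without PAMH F3 1, Xbp1 and Calr joined them as higher in PAMH F3, making 4 of 38, when 9.39% of all genes did not overlap.

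The largest common movement of the members was between mice of the same group (heat map of deviations). PAMH F3 1 was the lowest library for 21 of 38 members, whereas 13.2% of all genes tested were lowest there. In this library 32 of 38 members were below their mean over the 7 libraries, against 50.2% of all genes. The median deviation was -0.15 on the log2 scale for the members, -0.19 for the 16 chaperones and disulfide genes, and -0.00078 for all genes. Among these 16 genes, Ero1l was the exception that was above its mean. The summed level of the 38 members was 11520 CPM in PAMH F3 1 and between 12220 and 13510 CPM in the other libraries. After correction for GC content and length, 22 members were lowest in PAMH F3 1, against 16.0% of all genes, and 36 of 38 were below their mean there, against 55.2% of all genes. With this correction 0 of 38 members were below their mean in CNTR 3, against 40.1% of all genes, with a median deviation of 0.10 for the members. PAMH F3 1 had the lowest summed oocyte markers (221 CPM against 285 or more) and the lowest summed translocation genes (3467 CPM against 3651 or more). It also had the highest leukocyte markers (126 CPM against 107 or less) and the highest endothelial markers (259 CPM against 247 or less). Their part in the low member levels was not tested. PAMH F3 1 was noticed after the values were seen.

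**Figure D4:**
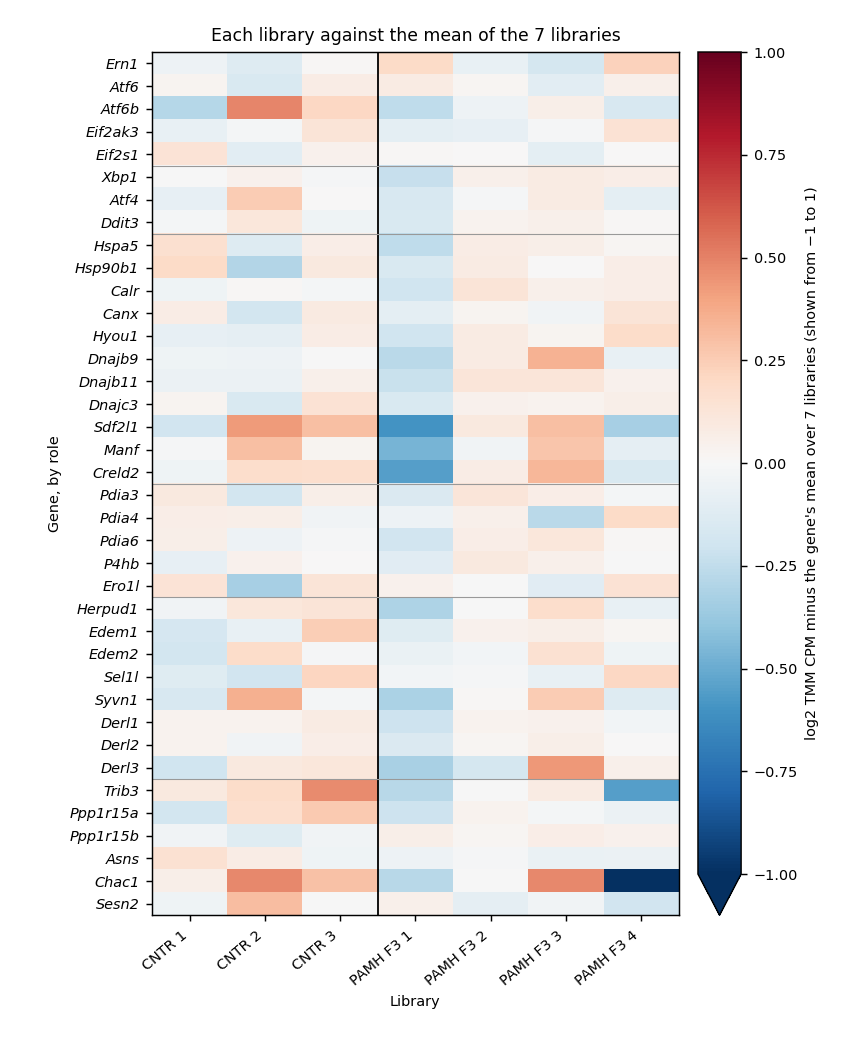
Log2 TMM CPM of each gene in each library minus its mean over the 7 libraries, with blue below and red above the mean, and Chac1 in PAMH F3 4 below the end of the colour scale. The column of PAMH F3 1 is mostly blue, and CNTR 2 is mixed, with Atf6b, Sdf2l1 and Chac1 high and Hsp90b1 and Ero1l low.

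CNTR 2 differed in another way. Its deviations rose with the GC content of the genes, which ranged over the members from 42.3% for Canx to 61.2% for Atf6b. The rank correlation of deviation with GC content in CNTR 2 was 0.83 across the 38 members and 0.61 across 18773 genes. In CNTR 1 it was -0.58 across the members, in PAMH F3 4 -0.51 and in PAMH F3 1 -0.47. After correction for GC content and length these values were -0.12 in CNTR 2, -0.25 in CNTR 1, 0.11 in PAMH F3 4 and -0.049 in PAMH F3 1. Genes are not independent replicates, and these values describe the libraries. Atf6b and Sesn2, both rich in GC, had their highest library in CNTR 2. Canx, Hsp90b1 and Ero1l, at 42.3%, 42.7% and 44.7% GC, had their lowest library there. Not every GC-rich member was highest in CNTR 2. Derl3, at 59.2% GC, was highest in PAMH F3 3, and Trib3, at 58.5%, in CNTR 3.

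Co-variation with Hspa5 across the mice was described by correlation. Pearson's r of log2 CPM with Hspa5 over the 7 libraries was above 0.7 for 8 of 37 other members, against 4.01% of all genes, and below -0.7 for 0 members, against 2.56% of all genes. The highest values were those of Derl2 (0.91), Pdia3 (0.90), Pdia6 (0.89) and Hsp90b1 (0.86). Spearman's rho was 0.71 for Derl2, 0.89 for Pdia3, 0.68 for Pdia6 and 0.89 for Hsp90b1. In exact permutation tests over every order of the libraries with Benjamini-Hochberg adjustment over 37 relations, none passed, with a smallest adjusted p of 0.140 for r and 0.228 for rho. The unadjusted permutation p of r was under 0.05 for 5 of 37 members. The share of all genes with such a p was not computed, so this count has no background. The median r was 0.31 over the members and -0.026 over all genes.

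The relations rested largely on 2 libraries. Without PAMH F3 1 and CNTR 2, the libraries farthest from the median of Hspa5, the r of Derl2 was 0.20 and that of Pdia6 0.25, that of Pdia3 was 0.67, and of the 8 members only Hsp90b1, at 0.81, stayed above 0.7. The median r over the members was then -0.18. Centred within groups, 8 members were above 0.7, against 6.86% of all genes. After correction for GC content and length, 12 members were above 0.7, against 4.46% of all genes, and Creld2 and Herpud1 had r of 0.91 and 0.82 with Hspa5 instead of 0.58 and 0.53. Even so, 0 relations passed the exact permutation test after adjustment, with a smallest adjusted p of 0.0697.

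Among all 703 pairs of members the median r was 0.29. It was 0.52 over the 120 pairs within chaperones and disulfide genes, 0.32 over the 15 pairs within the ATF4 branch and 0.063 over the 96 pairs between these sets. With GC content and length corrected, these medians were 0.69, 0.080 and 0.26. Within groups, the median was 0.54 for chaperones and disulfide genes and 0.026 for the ATF4 branch. Pairs share genes and libraries, and these medians carry no test.

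The tightest block of the matrix, picked after its values were seen, held Herpud1, Creld2, Manf and Sdf2l1. Their 6 pairwise r ranged from 0.90 for Manf with Sdf2l1 to 0.99 for Herpud1 with Creld2. All 4 genes had their lowest library in PAMH F3 1. Their r stayed between 0.79 and 0.96 after correction for GC content and length, and between 0.70 and 0.96 without PAMH F3 1 and CNTR 2. Herpud1 and Creld2 are among the members with an ERSE-II or ERSE shown above, Sdf2l1 had neither and Manf had no window. The r of 0.96 between Atf4 and Syvn1 was 0.67 after the correction, 0.96 without these 2 libraries and 0.98 within groups. The r of -0.96 between Edem2 and Eif2s1 was -0.20 after the correction, -0.97 without these libraries and -0.99 within groups. The last pair differs in GC content, with 52.1% for Edem2 and 42.5% for Eif2s1.

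**Figure D5:**
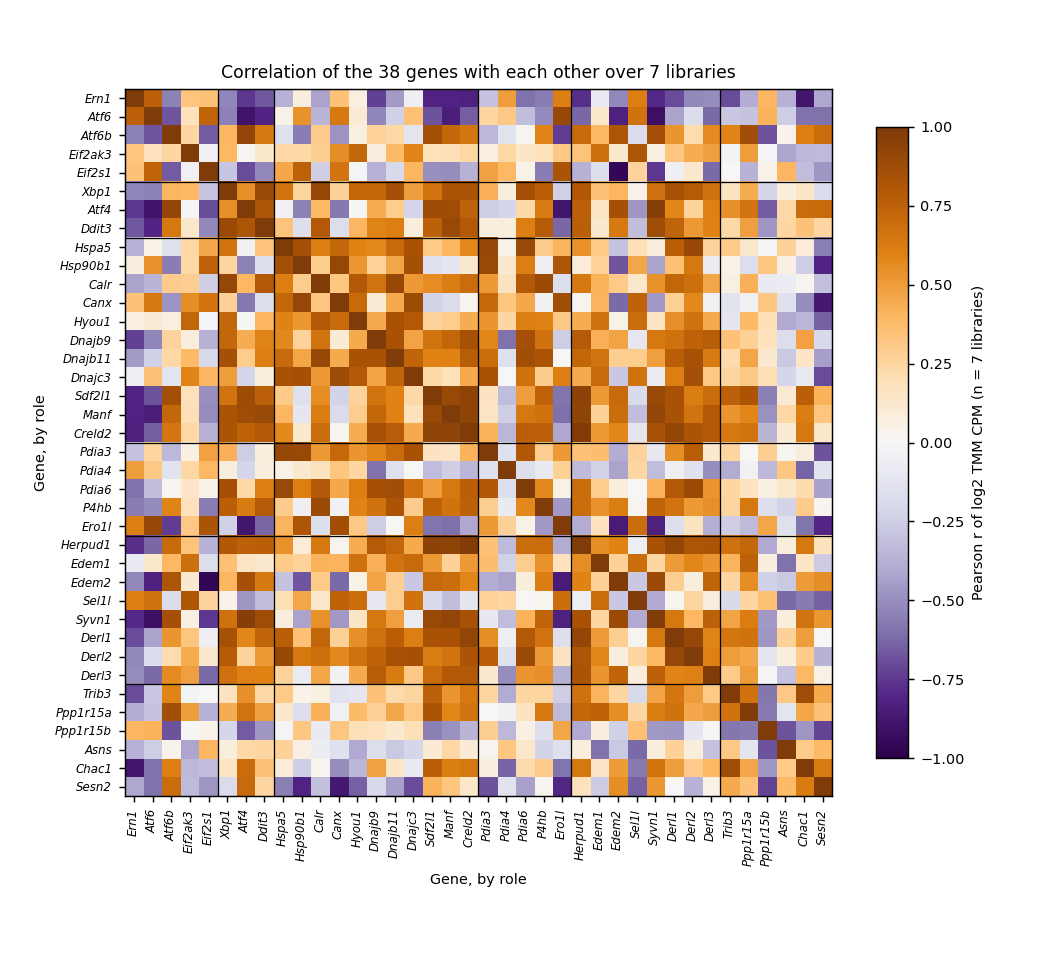
Pearson r of log2 TMM CPM over the 7 libraries for each pair of the 38 genes, ordered by role, with orange for positive and purple for negative values. The chaperone and disulfide blocks are mostly orange (median r 0.52), whereas Ern1, Atf6 and Ero1l run against Atf4, Sdf2l1, Manf, Creld2 and Syvn1. The plotted r are not corrected for GC content and length, and the part of GC content in these negative pairs was not tested.

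In the comparison of groups, the 9 members with an ERSE match lay on both sides of 0. Of these genes 4 were higher and 5 lower in PAMH F3, with a median log2 fold change of -0.017 and a range from -0.08 to 0.11, and 0 had an unadjusted edgeR p under 0.05. For the 24 matched members without the element the median was -0.033, with 10 higher and 14 lower. The median CNTR level was 174 CPM per kb with the element and 21.7 CPM per kb without it. The median r with Hspa5 was 0.67 and 0.31 in these sets, and 7 of the 9 genes had their lowest library in PAMH F3 1, against 11 of 24. These sets also differ in role. The set with the element held 6 chaperones, 1 disulfide gene and 2 ERAD genes, and no sensor, transcription factor or gene of the ATF4 branch. Pdia3, P4hb and Pdia4, without a match, stood at 396, 353 and 279 CPM per kb in CNTR. The values are descriptions of sets chosen by their promoters, without a test.

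Among other genes of secretory pathway folding and stress, 0 passed the adjusted threshold in any list. Counts at an unadjusted edgeR p under 0.05 are read against the 7.63% of all genes with such a p. Of 15 further folding genes, 1 had an unadjusted edgeR p under 0.05 and was higher, and of 14 further ERAD genes 1 was lower. Pdia5, a disulfide isomerase family member, measured 43.8, 39.5 and 44.7 CPM in CNTR and 47.2, 48.7, 50.2 and 54.8 CPM in PAMH F3. All PAMH F3 libraries were higher, with a log2 fold change of 0.22 (SE 0.07). Creb3l2, an ER-anchored transcription factor of the ATF6 type, was the 1 gene of 15 other tested transducers with such a p. It measured 292, 305 and 339 CPM in CNTR and 346, 375, 362 and 358 CPM in PAMH F3, for a log2 fold change of 0.24 (SE 0.06). The unadjusted edgeR p of Pdia5 was 0.0518 without PAMH F3 2, 0.0558 without PAMH F3 3, 0.0586 without PAMH F3 4 and 0.128 with a replicate block, and that of Creb3l2 was 0.0913 with the block. Without CNTR 2 and surrogate variables these p were 0.0755 and 0.0675. With edgeR's quasi-likelihood test and Benjamini-Hochberg adjustment, the adjusted p was 0.580 for Pdia5 and 0.539 for Creb3l2.

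Of 16 genes of protein translocation into the ER, Spcs1, a signal peptidase subunit, was the 1 with an unadjusted p under 0.05. It measured 152, 170 and 143 CPM in CNTR and 137, 140, 140 and 127 CPM in PAMH F3, for a log2 fold change of -0.16 (SE 0.05), and its unadjusted edgeR p was 0.0563 without surrogate variables, 0.0598 without PAMH F3 2, 0.0670 without PAMH F3 4 and 0.216 with a replicate block. Without surrogate variables it was also 0.0708 by DESeq2 and 0.165 when CNTR 2 was left out. Of 25 genes of the amino acid response, 3 were lower and 1 higher at this p, against 7.63% of all genes, and the groups overlapped in all 25. Of 12 cytosolic heat shock genes, 2 were lower. Hspa1a, the inducible cytosolic HSP70, measured 9.16, 11.5 and 16.2 CPM in CNTR and 8.59, 8.04, 8.79 and 7.62 CPM in PAMH F3, for a log2 fold change of -0.43 (SE 0.15). Without CNTR 3, its highest library, this was -0.24, without PAMH F3 4 it was -0.29, and without CNTR 1 it was -0.70. The unadjusted edgeR p was 0.125 without CNTR 3, 0.0687 without PAMH F3 2, 0.0676 without PAMH F3 4 and 0.0678 with the GC and length offset. Hspa1a has a near-identical copy, Hspa1b. Reads that fit both copies are not uniquely aligned and were left out, so both genes are undercounted. With edgeR's quasi-likelihood test and Benjamini-Hochberg adjustment, the adjusted p was 0.601 for Spcs1 and 0.604 for Hspa1a.

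Immediate early genes, which respond to handling and dissection within minutes, were followed as a sign of tissue handling. Of 12 such genes, 4 were lower and 1 higher at an unadjusted edgeR p under 0.05, against 7.63% of all genes, with a median log2 fold change of -0.36. Fosb measured 3.47, 3.12 and 2.45 CPM in CNTR and 1.76, 1.08, 0.949 and 1.82 CPM in PAMH F3, for a log2 fold change of -1.21 (SE 0.28). Junb measured 2.95, 15.8 and 4.21 CPM in CNTR, with CNTR 2 far above the rest, and 2.58, 2.14, 2.71 and 1.32 CPM in PAMH F3, for a log2 fold change of -1.03 (SE 0.31). For Junb this was -0.69 without CNTR 2, -1.91 without CNTR 1 and -1.80 without surrogate variables, and the unadjusted edgeR p was 0.0565 without PAMH F3 2. Zfp36 measured 33.9, 38.2 and 32.5 CPM in CNTR and 27.8, 26.6, 25.3 and 25.8 CPM in PAMH F3, for a log2 fold change of -0.38 (SE 0.08). The adjusted p of these 3 genes by edgeR lay between 0.516 and 0.559. Among markers of plasma and B cells, which are rich in ER, the summed level was between 25.0 and 65.6 CPM in CNTR and between 31.9 and 62.7 CPM in PAMH F3, and Mzb1 lay under 1 CPM in every library. Cd79a alone of these markers did not overlap, at 0.934, 0.630 and 0.681 CPM in CNTR and 0.425, 0.211, 0.391 and 0.470 CPM in PAMH F3, for a log2 fold change of -1.11 (SE 0.32). Without CNTR 1 it was -0.83, and the call at an unadjusted p under 0.05 was lost. Cd79a lay under 1 CPM in every library, near the floor, and a filter of at least 10 counts in every library removed it. The part of handling or of these cells in the ATF4 branch values was not tested.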

How the data were processed

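Total RNA of mouse ovaries had been made into stranded poly(A) libraries with the TruSeq Stranded mRNA kit and sequenced as single reads of 50 bases. The authors aligned the reads to mm10 with STAR 2.5.3a and counted uniquely aligned reads per Ensembl gene with HTSeq 0.6.1p1 in union mode, per the paper and the labels. The deposited values are these raw counts per gene, and the Ensembl release and strand setting are not given in the sources used here. Reads aligned to several places, between 37.7% and 40.7% of the counting total in each library, those outside genes (5.82% to 7.37%) and ambiguous ones (0.720% to 0.848%) are listed in 5 summary lines and were left out. Because 50-base reads had to align uniquely, genes with close copies are undercounted.

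Of 55487 identifiers, 55394 were named by GENCODE M21, and 33791 had at least 1 count. The members and all lists were chosen with earlier results of these data known. Counts of 18779 genes kept by filterByExpr (minimum count 10) were tested with edgeR 4.0.16 (quasi-likelihood F test, TMM) in R 4.3.3, with 2 surrogate variables (estimates of unwanted variation) from sva 3.50.0, number estimated with 20 permutations, seed 1 and a limit of 3. After these, 3 residual degrees of freedom remained. Adjustment followed Benjamini and Hochberg over all genes with a threshold of 0.05, and intervals are at 95%. DESeq2 1.42.0 was an alternative. The fits were tested on simulated data.

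Nothing states that libraries came from separate litters, so p values measure the spread between these samples, which may be partly technical. Exact permutation tests used the 35 divisions of the libraries into 3 and 4, or for correlations every order of them. GC content and length were corrected per library with splines of 4 degrees of freedom. Levels per kb use merged exon length, where the median transcript length had been planned, because short annotated fragments set the latter for some genes. The rank correlation of both orders was 0.856. Promoter windows came from RefSeq, and Ero1l was matched through its synonym. The letters searched on both strands were CCAAT and CCACG alone or 9 bases apart (ERSE), ATTGG and CCACG 1 base apart (ERSE-II), TGACGTGG and TGATGNAA. The limits for r of 0.7 and -0.7 were set after seeing the data.

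Members named with a fold change were Hspa5, Hsp90b1, Hyou1, Xbp1, Atf6, Ern1, Eif2ak3, Atf4, Ddit3, Herpud1, Syvn1, Sel1l, P4hb and Calr, any with an unadjusted p under 0.05 and any whose groups did not overlap. List genes had to meet both conditions. Derl3, Canx, Dnajc3, Asns and Chac1 were added after their values were seen. Alternatives changed the number of surrogate variables, the tool, the size factors, the filter, the replicate block, the GC and length correction and the libraries. A fit without surrogate variables and without CNTR 2 was chosen after seeing the data.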

Additional observations from a re-analysis of the deposited data

Results flagged for a closer look

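In the PAMH F3 group, 4 of 38 members had 1 library far from the other 3 by Dixon's test at the 95% level. For normally distributed values, chance alone marks about 1 in 20 groups. The share of all genes flagged in these libraries was not computed, so this count has no background from the data. Xbp1 stood at 241 CPM in PAMH F3 1, with the other libraries between 293 and 301 CPM and CNTR between 281 and 293 CPM. Dnajc3 stood at 302.5 CPM in the same library, with the others between 344 and 350 CPM and CNTR between 303 and 371 CPM. In PAMH F3 3, Eif2s1 stood at 91.1 CPM against 97.7 to 98.0 CPM, and Edem2 at 83.7 CPM against 71.9 to 73.8 CPM. All 4 values but those of Xbp1 and Dnajc3 lay within the CNTR range.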

How the results depend on the processing

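No alternative gave a member past the adjusted threshold, and the median log2 fold change of the members stayed between -0.06 and 0.01. Leaving out a library gave between 0 and 37 genes past the threshold over all genes (37 without CNTR 1 and 31 without PAMH F3 1), between 0 and 6 members with an unadjusted p under 0.05 (6 without CNTR 1, against 17.1% of all genes), and between 2 and 5 members whose groups did not overlap, against 6.09% to 15.5% of all genes. Over all genes, 102 passed with DESeq2 and the same surrogate variables, 8 with DESeq2 without them and 8 without a filter, and the cause was not tested. With plain library totals, 1 member did not overlap between groups. Deviations of same-numbered libraries correlated at 0.096, 0.097 and -0.25, and those of differently numbered libraries at values from -0.24 to 0.28. So few values cannot decide whether shared numbers pair the libraries. The replicate block without surrogate variables gave 0 members at either threshold, and no calls over all genes. A block together with 2 surrogate variables could not be fitted.

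Fold changes near 0 changed sign, never past the threshold, and 16 of 26 named genes kept theirs throughout. On the log2 scale and without surrogate variables, Atf6 was 0.032, Eif2ak3 -0.018, Xbp1 -0.011, Ddit3 -0.028 and Syvn1 -0.10, and with DESeq2 0.031, -0.019, -0.012, -0.028 and -0.10. With 1 surrogate variable these were 0.027, -0.022, -0.0091, -0.024 and -0.10, and with the replicate block 0.024, -0.067, -0.039, -0.034 and -0.069. With 3 surrogate variables, Atf6 was 0.0041, Eif2ak3 -0.0023 and Ddit3 -0.0031. With at least 10 counts in every library, Eif2ak3 was -0.0048 and Ddit3 -0.0051. With the GC and length offset, Eif2ak3 was -0.035 and Xbp1 -0.0048. Without surrogate variables and CNTR 2, Eif2ak3 was -0.044, Xbp1 -0.00088 and Sel1l -0.033. Leaving out each library gave a range from -0.035 to 0.055 for Atf6, from -0.064 to 0.028 for Eif2ak3, from -0.030 to 0.064 for Xbp1, from -0.044 to 0.034 for Ddit3, from -0.19 to 0.083 for Syvn1, from -0.15 to 0.023 for Hspa5, from -0.15 to 0.11 for Hsp90b1, from -0.0087 to 0.088 for P4hb and from -0.16 to 0.0024 for Herpud1.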
